A study of Homo sapiens with 4 samples.

Results

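The 34 genes described here encode proteins of the red cell membrane and factors of erythroid maturation. They were listed by symbol, with earlier results of these data known, and each symbol matched 1 of the 61498 genes in the tables. Poly(A) RNA of K562 cells, a human erythroleukaemia line carrying fetal and embryonic globin expression, was sequenced in 2 untreated libraries and in 2 libraries of cells kept for 108 h in 50 µM hemin, the iron-containing porphyrin of haemoglobin. All 4 libraries came from this same line in the same medium, and the comparison asked how the inducer changed expression. The labels number the replicates 1 and 2 in each group but do not say whether they came from separate cultures, so the p-values measure only the spread between these libraries. K562 is a transformed line, and whole-culture RNA was measured, so that fewer cells expressing a gene and less RNA per cell cannot be told apart.

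The red cell membrane is a lipid bilayer fastened to a spectrin-actin lattice. Ankyrin ties spectrin to the anion exchanger band 3 and the Rh complex, while protein 4.1, adducin, dematin and tropomodulin hold the actin junctions and connect them to glycophorin C. Erythroblasts build this lattice, display blood group antigens and complement regulators, and late in maturation shed receptors such as CD36, condense the nucleus and clear organelles.

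Expected counts, the RSEM estimates of reads per gene, totalled 7801824 and 7455447 for untreated cells, against 7513843 and 8241534 for treated cells, with 12.8% to 13.6% on the mitochondrial genome. Of the 12 erythroid markers all 12 were tested, 5 of them rose and 1 fell, and their summed level was 6408 and 6597 TPM (transcript abundance, a level per length) in the untreated and 8507 and 7975 TPM in the hemin-treated libraries. Of 8 megakaryocyte markers 3 were tested and 1, GP1BB, rose, and the list summed to 36.6 and 46.7 TPM untreated and 56.4 and 59.9 TPM after hemin. The GP1BB count depended on how RSEM divided shared reads, with a posterior SD of 10.5% of the count. Without GP1BB the sums were 5.06 and 7.35 TPM untreated and 4.42 and 3.97 TPM after hemin, and GP9, PF4 and PPBP had no count in any library. Granulocyte and monocyte markers (1 of 8 tested) and lymphoid markers (0 of 8 tested) summed to at most 3.96 TPM in any library.

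RHD and RHCE, the paired Rh blood group genes, illustrate how much sequence members can share. Their coding sequences are each 1251 bases long and 96.48% identical, with 44 differing positions, and 247 of the 1202 distinct 50-base words of the RHD coding sequence, 20.5%, also occur in RHCE. Below is one 50-base stretch of exon 7 (coding bases 940 to 989, GRCh38), picked as the window with the most differences, which reads 5′ to 3′ along each gene and has the 7 differing positions in capitals. RHD lies at chr1:25306596-25306645 on the plus strand and RHCE at chr1:25385795-25385844 on the minus strand. A 50-base read from such a stretch separates the genes, whereas one from an identical stretch was divided between them by RSEM.
RHD: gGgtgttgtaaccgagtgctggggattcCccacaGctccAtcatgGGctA
RHCE: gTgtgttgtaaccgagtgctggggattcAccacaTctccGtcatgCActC

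The GATA word AGATAA, the letters bound by the erythroid factor GATA1 and its relatives, was searched on both strands in the 250 bases before each annotated RefSeq start (GRCh38.p14). It occurred in 3219 of all 35116 windows, 9.17%, and in 14 of the 48 windows of the 26 members found in the table, 29.2%. Those 14 windows belonged to 13 members and include near-identical copies, since the RHD and RHCE windows matched at 248 of 250 bases. GYPB and GYPE, also among the 13, had upstream windows that matched at 205 of the 209 bases compared. The windows are therefore not independent sites. TGATAA was in 6.66% of all windows and 12.5% of the members' windows, and CACCC, the core of the KLF1 word, in 54.7% and 68.8%. These matches are descriptions of letters, and no binding was measured. The sites of 7 members are shown as 30 bases with AGATAA in capitals, because they belong to genes whose RNA rose, fell, did not pass the test or was barely or not counted. They lie at chr14:64879932-64879961 (minus strand), chr7:142962408-142962437 (minus), chr4:143905587-143905616 (minus), chr6:30161352-30161381 (plus), chr6:41042437-41042466 (plus), chr1:205256095-205256124 (minus) and chr9:97938269-97938298 (minus). GENCODE 44 places the first 5 outside the member's own gene and the TMCC2 and HEMGN sites in introns, ahead of internal starts. The TSPO2 site also lies in an intron of OARD1, and the GYPE site in an intron of another annotated gene without a symbol. Among the sites not shown, those of CD36, GYPB, RHCE and RHD overlap an exon of the member's own gene. The EPOR site overlaps an exon of RGL3, and the EPB42 site lies outside its gene.
SPTB: atgtccctcctcAGATAAtgttatttatat
KEL: cctgagaagctgAGATAAagggggaggaga
GYPE: ggtgggcctggaAGATAAcagctagcaggc
TRIM10: gtgtgggggctcAGATAAggtccttgtgcc
TSPO2: cagtctgatatggtgAGATAAgcctgggac
TMCC2: gaaggtgtgaagAGATAAgggcccagtgct
HEMGN: tgtggtccaaccAGATAAaacttttaggcg

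Before any comparison, the members spanned the whole range from abundant to absent. By mean TPM over the 4 libraries, 4 members stood at 100 TPM or more, 20 between 10 and 100, 6 between 1 and 10, and 4 under 1 TPM. GYPC (mean 327 TPM, range 322 to 338) and RHAG (mean 322 TPM, range 294 to 349) were highest and overlapped, followed by GYPB (mean 208 TPM) and EPB41 (mean 169 TPM), each apart from its neighbours. CA2, GYPE, HEMGN, CD59, ADD1 and XK followed, with means from 60.4 to 99.3 TPM. Of the 33 pairs of neighbours in this order, 9 had library ranges that stood apart and 24 overlapped. AHSP, the alpha-globin chaperone, and TRIM10 had no expected count in any library, which allows up to 3 counts, or 0.364 to 0.402 CPM (counts scaled to the library's size), in each. SLC4A1, which encodes band 3, the most abundant protein of the mature membrane, averaged only 1.71 TPM.

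**Figure D1:**
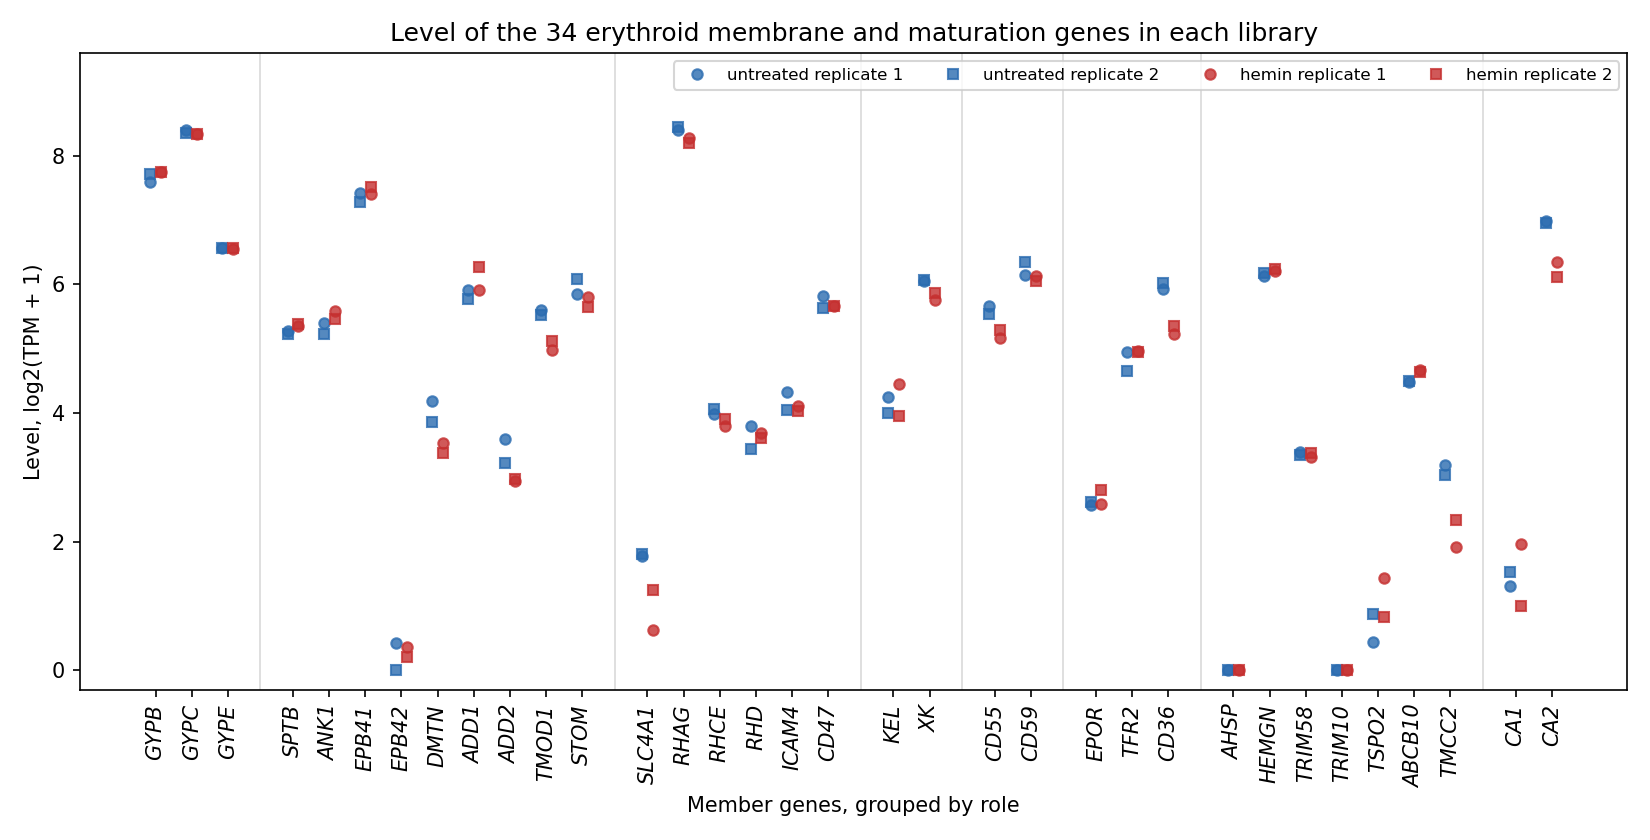
Level of each of the 34 members as log2(TPM + 1), grouped by role, with 1 point per library (blue untreated, red hemin, circles replicate 1, squares replicate 2). GYPC and RHAG sit at the top with means of 327 and 322 TPM, and AHSP and TRIM10 lie at 0 in all 4 libraries.

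Of the 34 members, 29 had enough counts to be tested. After hemin 3 rose, 8 fell and 18 did not pass an adjusted p of 0.05 (edgeR quasi-likelihood test with Benjamini-Hochberg adjustment over 14458 genes). Over all genes tested 14.1% were called, 7.00% higher and 7.14% lower, against 37.9% of the members, 10.3% higher and 27.6% lower. Members were read more deeply than most genes, so the share was also taken over genes averaging at least 100 counts, where 19.5% of 8993 genes and 11 of 26 members (42.3%) were called. Lower calls made up 8.82% of these genes and 30.8% of these members, and higher calls 10.7% and 11.5%. These shares describe a list chosen with results known. The median log2 fold change was -0.04 for the members and -0.0048 for all genes, and 13 members were positive and 16 negative. Only TMCC2 changed by 2-fold or more, and the called members ranged in size from 0.21 to 1.25 on the log2 scale. At an unadjusted p under 0.05 in edgeR, 4 of the 29 members were higher and 13 lower, against 2133 and 2118 of the 14458 genes. On log2(TPM + 1) with limma, none of the 11 calls passed the threshold, while 9 members were lower and 0 higher at an unadjusted p under 0.05. The matching count over all genes was not taken for limma.

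**Figure D2:**
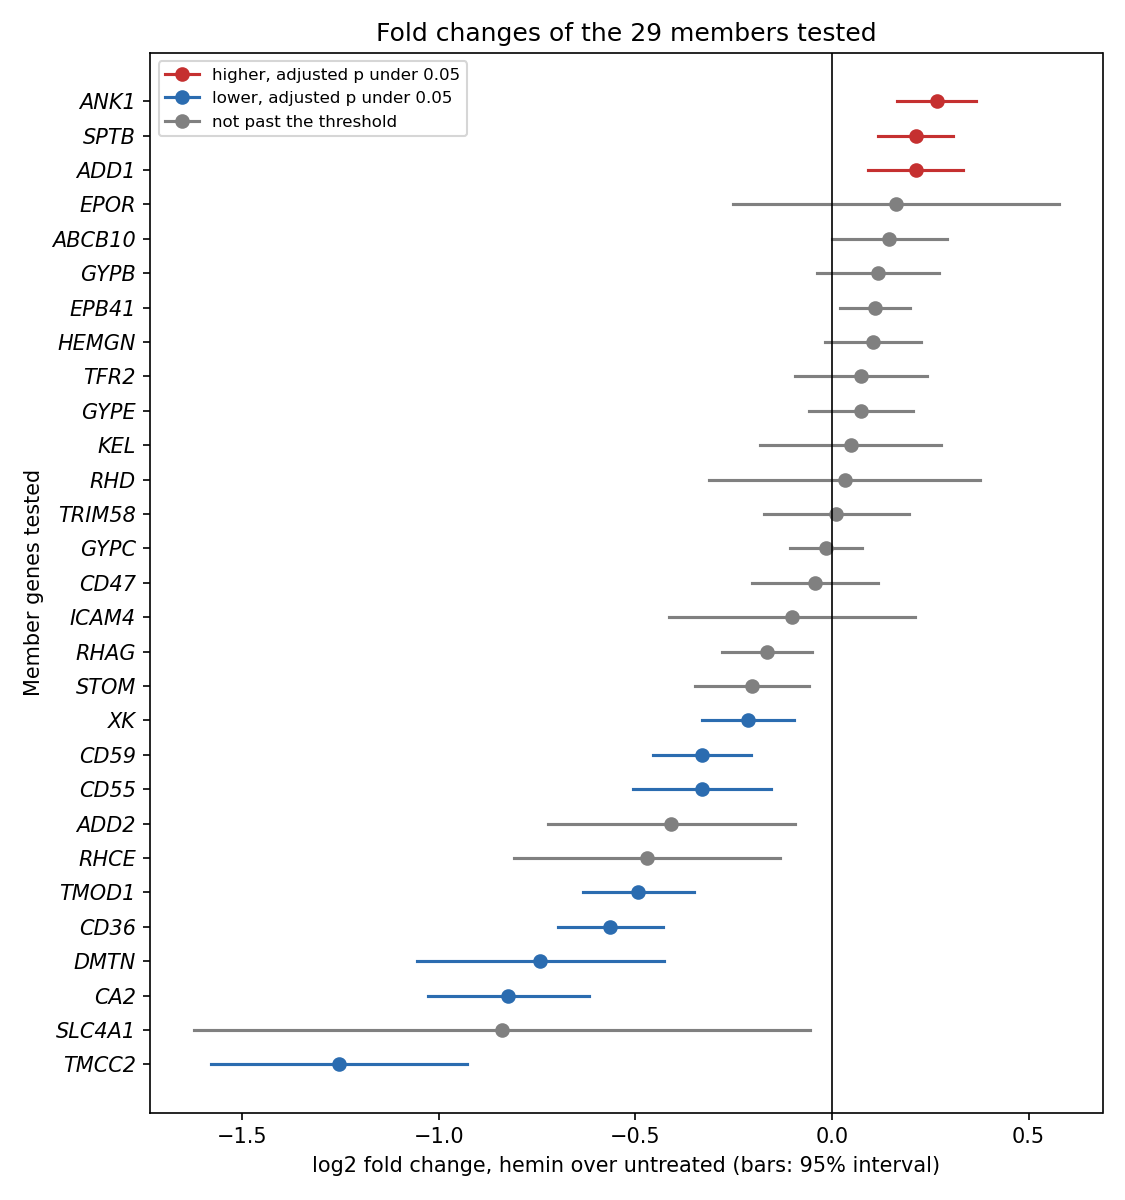
Log2 fold change of the 29 tested members, hemin over untreated, with 95% intervals from edgeR and the genes ordered by size. Blue marks the 8 members called lower, from XK at -0.21 to TMCC2 at -1.25, and red the 3 called higher, of which ANK1 at 0.27 was the highest.

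**Figure D3:**
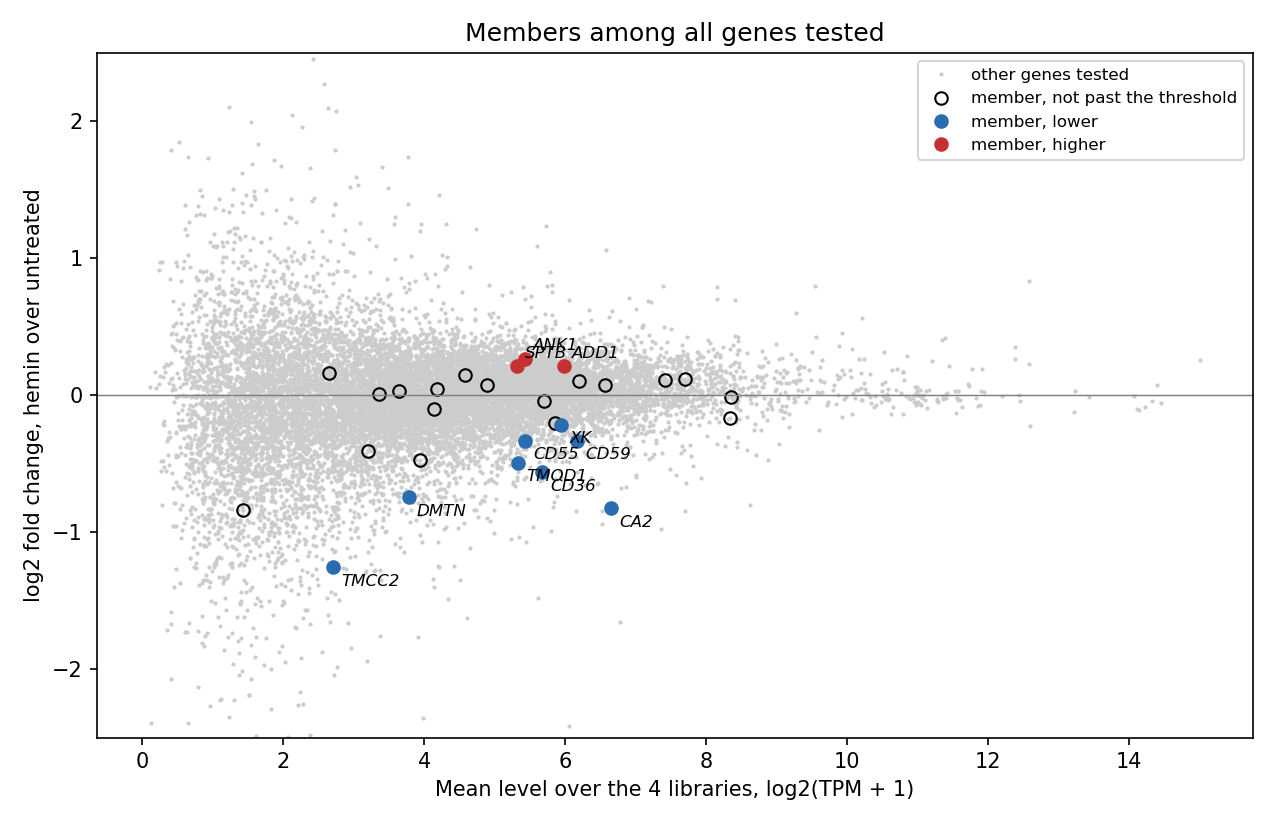
Log2 fold change against mean level, log2(TPM + 1), for all genes tested (grey) and the members (coloured where called, open where not). The called members have mean levels from 5.54 TPM (TMCC2) to 99.3 TPM (CA2), and 25 genes beyond 2.5 on the log2 scale are outside the plotted range.

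Of the 8 skeleton members tested, 3 rose and 2 fell. SPTB, ANK1 and ADD1 rose by 15.9% to 20.3%, whereas TMOD1 fell by 28.9% and DMTN fell by 40.2%. SPTB, erythroid beta-spectrin (chr14:64746283-64879907, minus strand), was at 174 and 174 CPM in the untreated libraries and 199 and 204 CPM in the hemin-treated libraries. Both treated libraries lay above both untreated ones, and the log2 fold change was 0.21 (SE 0.0427, adjusted p = 0.0118, edgeR quasi-likelihood test with Benjamini-Hochberg adjustment). ANK1, erythroid ankyrin (chr8:41653220-41896741, minus strand), went from 159.6 and 154 CPM to 189.9 and 188 CPM, a log2 fold change of 0.27 (SE 0.0448, adjusted p = 0.00559, edgeR) that passed with each of the 4 libraries left out. For both genes the groups did not overlap in CPM or in TPM, as was so for 28.1% of all genes in CPM and 21.3% in TPM with hemin above. ADD1, alpha-adducin, which caps actin and recruits spectrin, rose from 103 and 102 CPM to 115 and 123 CPM (log2 0.21, SE 0.0538, adjusted p = 0.0298, edgeR), but its TPM values overlapped between groups (59.4 and 53.8 TPM untreated, 59.3 and 75.9 TPM treated). Leaving out untreated replicate 1 ended the call for SPTB (adjusted p = 0.0561, edgeR), as did leaving out hemin replicate 2 (adjusted p = 0.0529, edgeR). For ADD1 the call was lost without untreated replicate 1, untreated replicate 2 or hemin replicate 2 (adjusted p = 0.0985, 0.111 and 0.166, edgeR), with library size alone (0.0562) and in DESeq2 (adjusted p = 0.0882). SPTB shares 22.1% of its 50-base words with PLEKHG3 on the opposite strand, which had 38.6 to 46.8 counts per library against 1303 to 1643 for SPTB.

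Among the genes of the actin junctions that fell, TMOD1, tropomodulin, which caps the pointed ends of the short actin filaments (chr9:97501180-97601743, plus strand), was at 110.1 and 105.8 CPM untreated and 72.9 and 80.3 CPM after hemin. Every treated library was below every untreated one, as in 29.3% of all genes in CPM and 28.5% in TPM, and TMOD1 fell by 0.49 on the log2 scale (SE 0.0625, adjusted p = 0.00145, edgeR). Of the TMOD1 50-base words 44.5% are shared with TSTD2 on the opposite strand, and the posterior SD that RSEM gave for dividing shared reads was 1.31% of the TMOD1 count. TSTD2 itself did not pass the test (log2 fold change 0.19, SE 0.081, adjusted p = 0.160, edgeR). DMTN, dematin, which bundles actin at the junctions (chr8:22048995-22082527, plus strand), went from 22.0 and 18.8 CPM to 13.2 and 11.3 CPM, and fell by 0.74 on the log2 scale (SE 0.140, adjusted p = 0.00923, edgeR). Again the groups did not overlap. DMTN lost its call without untreated replicate 1, the library in which it was highest (adjusted p = 0.0627, edgeR).

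The other skeleton members gave values short of the threshold. ADD2, beta-adducin, the erythroid partner of ADD1, was at 20.2 and 16.4 CPM untreated and 14.2 and 13.5 CPM treated (log2 fold change -0.41, SE 0.140, adjusted p = 0.0828, edgeR). STOM, stomatin of the lipid rafts, was at 87.2 and 96.7 CPM and 80.1 and 79.5 CPM (log2 -0.20, SE 0.0645, adjusted p = 0.0650, edgeR). In both genes the treated libraries were below the untreated ones, and STOM passed in 4 of 15 alternatives. EPB41, protein 4.1, the most abundant skeleton member, was at 488 and 471 CPM and 517 and 518 CPM (log2 0.11, SE 0.0397, adjusted p = 0.10, edgeR), with treated above untreated in CPM but overlapping in TPM. EPB42, protein 4.2, had 1, 0, 1 and 1.53 counts in untreated replicates 1 and 2 and hemin replicates 1 and 2, the order used for counts from here on, and was not tested.

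**Figure D4:**
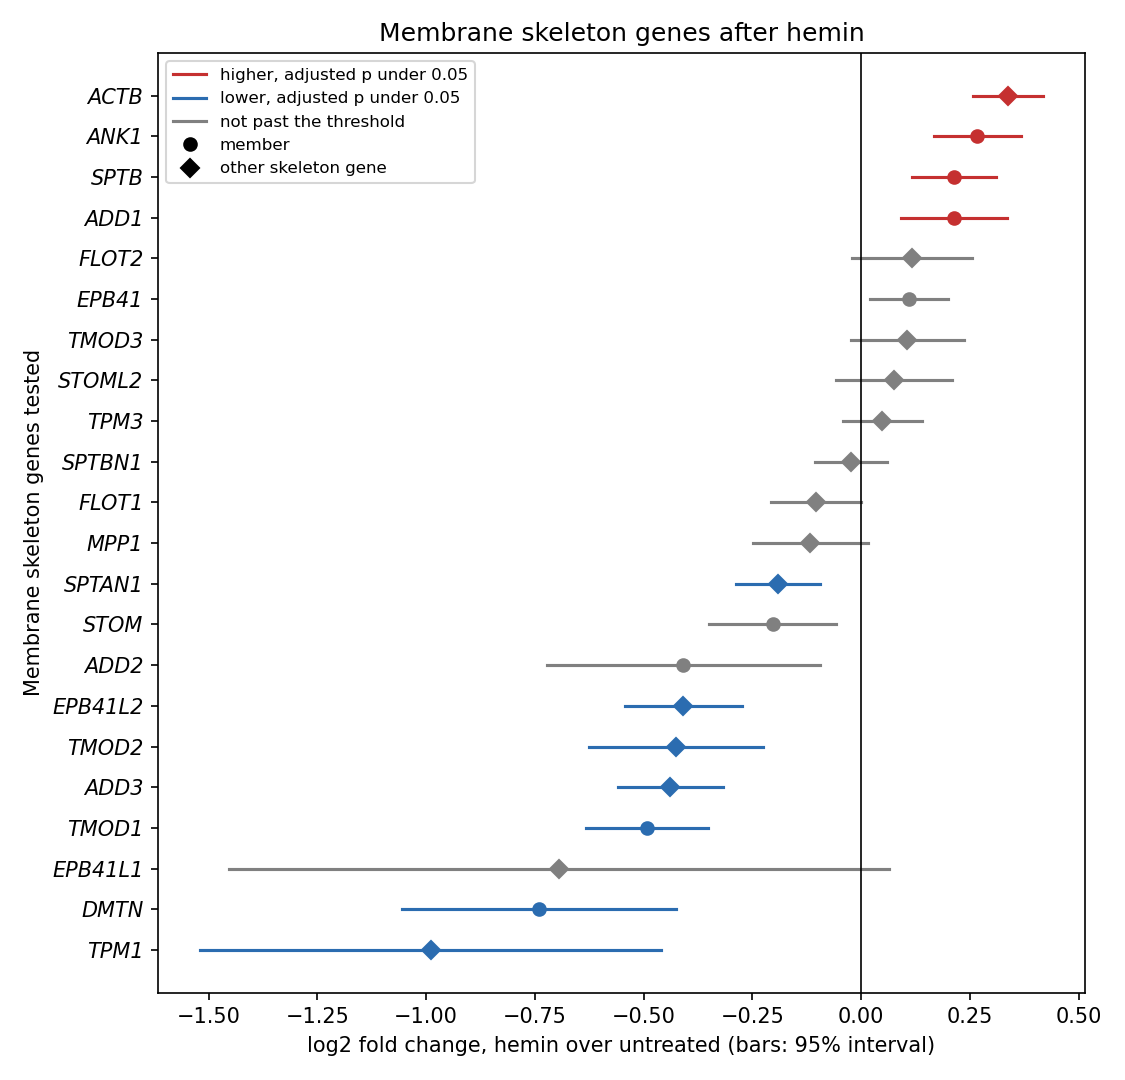
Log2 fold change with 95% interval for 8 skeleton members (circles) and 14 other genes of the skeleton list (diamonds), coloured by call. ACTB at 0.34 lies at the top with ANK1, SPTB and ADD1, while TPM1 at -0.99 and DMTN at -0.74 lie at the bottom.

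The other skeleton list, with 15 of 16 genes tested, had 2 genes that rose, ACTB among them, and 5 that fell. ACTB, the actin of the red cell junctions, rose by 0.34 on the log2 scale (adjusted p = 6.7e-04, edgeR). TPM1, a tropomyosin, fell from 8.22 and 6.68 CPM to 3.91 and 3.59 CPM (log2 -0.99, adjusted p = 0.0240, edgeR). ADD3, gamma-adducin (-0.44, adjusted p = 0.00120), TMOD2 (-0.43, adjusted p = 0.0143) and EPB41L2 (-0.41, adjusted p = 0.00318), paralogues of skeleton members that are expressed outside the red cell, also fell in the edgeR test.

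None of the 3 glycophorins, the sialoglycoproteins of the red cell surface, passed the test. GYPC, glycophorin C, which anchors protein 4.1 and p55 to the bilayer (chr2:126656133-126696667, plus strand), was at 233 and 230.2 CPM untreated and 229 and 229 CPM treated (log2 fold change -0.02, 95% interval -0.11 to 0.08, adjusted p = 0.851, edgeR). That interval leaves room for a change of at most about 0.11 on the log2 scale in either direction. GYPB, which carries the S and s antigens, was at 54.6 and 58.4 CPM and 59.9 and 62.5 CPM (log2 0.12, 95% interval -0.04 to 0.27, adjusted p = 0.302, edgeR). GYPE, a further glycophorin copy in the same cluster on chromosome 4, was at 84.2 and 88.8 CPM and 88.5 and 93.3 CPM (log2 0.07, 95% interval -0.06 to 0.21, adjusted p = 0.462, edgeR). The treated libraries lay above the untreated ones for GYPB and overlapped for GYPE. Of the GYPB 50-base words 17.7% also occur in other genes, and the posterior SD for dividing shared reads was 1.96% of the GYPB count.

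No member of the band 3 and Rh complex passed the test. Negative fold changes were found in 5 of 6, and in 7357 of all 14458 genes tested. RHAG, the Rh-associated glycoprotein that the Rh proteins need at the surface (chr6:49605175-49636839, minus strand), was at 352 and 387 CPM untreated and 334 and 324 CPM treated (log2 -0.17, SE 0.0512, adjusted p = 0.0608, edgeR). Both treated libraries were lower, and 5 of 15 alternatives carried it past the threshold. SLC4A1 had 40, 26, 14 and 23 counts, a pooled ratio of treated to untreated of 0.543 with a 95% exact counting interval from 0.353 to 0.824. That interval covers counting error only, and the edgeR test, which adds the spread between libraries, gave a log2 fold change of -0.84 (SE 0.348, adjusted p = 0.144). ICAM4, the LW antigen, was at 16.7 and 13.9 CPM and 14.4 and 14.1 CPM, and the groups overlapped. CD47, the marker that keeps macrophages from engulfing red cells, was at 52.3 and 54.1 CPM and 53.3 and 50.1 CPM, again overlapping. Of the ICAM4 words 90.4% lie on an antisense transcript, ICAM4-AS1, which no gene name in the tables matched.

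Neither gene of the Rh pair passed the test on the authors' division of shared reads. RHCE had 114, 115, 87.0 and 78.8 counts and a log2 fold change of -0.47 (SE 0.15, adjusted p = 0.0668, edgeR), and RHD had 133, 99.5, 124 and 115 counts and 0.03 (SE 0.154, adjusted p = 0.919, edgeR). The posterior SD was 4.42% of the RHCE count and 3.70% of the RHD count, the largest among the members tested. Summed as 1 gene they had 247, 214, 211 and 193 counts and a log2 fold change of -0.20 (SE 0.11, adjusted p = 0.267, edgeR). RHCE passed in 2 of 15 alternatives, and its log2 fold change ranged from -0.60 to -0.16 over them all. RHD changed sign in 4 of 15 alternatives, and the difference between both genes was not tested.

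Of the Kell and XK proteins, which are linked by a disulfide bond in the membrane, XK fell and KEL did not pass. XK, on the X chromosome (chrX:37685791-37732130, plus strand), was at 238 and 244 CPM untreated and 198 and 217 CPM treated, with no overlap (log2 -0.21, SE 0.0518, adjusted p = 0.0258, edgeR). KEL, the zinc endopeptidase that carries the Kell antigens, was at 21.5 and 22.0 CPM and 23.5 and 21.6 CPM, where the groups overlapped (log2 0.05, 95% interval -0.18 to 0.28, adjusted p = 0.821, edgeR). The XK call was lost without untreated replicate 1, untreated replicate 2 or hemin replicate 1 (adjusted p = 0.0710, 0.120 and 0.143, edgeR).

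Both complement regulators, lipid-anchored proteins that shield red cells from lysis, fell by 20.5%. CD59, which blocks the membrane attack complex (chr11:33703010-33736479, minus strand), went from 129 and 138 CPM to 109 and 104 CPM, a log2 fold change of -0.33 (SE 0.0554, adjusted p = 0.00558, edgeR). CD55, decay-accelerating factor (chr1:207321519-207386804, plus strand), went from 46.3 and 49.9 CPM to 37.8 and 38.7 CPM, also -0.33 (SE 0.0779, adjusted p = 0.0228, edgeR). Neither gene's groups overlapped. CD59 passed with each library left out, whereas CD55 did not pass without untreated replicate 2 (adjusted p = 0.123, edgeR), without hemin replicate 1 (adjusted p = 0.0630, edgeR) or in DESeq2 (adjusted p = 0.125). On the log2(TPM + 1) scale the change of CD59 was -0.15, and its effective length was shorter after hemin.

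Among the surface receptors, CD36, the scavenger receptor that marks early erythroid cells and is also found on megakaryocytes and monocytes (chr7:80369575-80679277, plus strand), was at 92.3 and 89.7 CPM untreated and 60.1 and 63.0 CPM treated. The treated libraries were both lower by nearly the same step, 32.3% on the fitted scale, and CD36 fell by 0.56 on the log2 scale (SE 0.0598, adjusted p = 6.7e-04, edgeR). EPOR, the erythropoietin receptor, was at 7.21 and 8.01 CPM and 8.09 and 8.92 CPM (log2 0.16, 95% interval -0.25 to 0.58, adjusted p = 0.613, edgeR). TFR2, transferrin receptor 2, an iron sensor that associates with EPOR, was at 41.1 and 41.7 CPM and 44.6 and 42.5 CPM (log2 0.07, 95% interval -0.10 to 0.24, adjusted p = 0.576, edgeR). Treated values of EPOR and TFR2 were slightly above untreated ones, by less than their intervals could separate from 0. The megakaryocyte markers were higher after hemin in sum with GP1BB and lower without it, and their part in the CD36 value was not tested.

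TMCC2, a coiled-coil membrane protein found high in maturing erythroid cells (chr1:205227946-205285632, plus strand), had the largest change of the members tested. It was at 19.3 and 17.6 CPM untreated and 7.96 and 7.56 CPM treated, and fell by 1.25 on the log2 scale, 2.38-fold (SE 0.145, adjusted p = 9.1e-04, edgeR), which ranked 176 of 14458 from the lowest. Its transcripts share no 50-base word with another gene, and the call held with each library left out. HEMGN, hemogen, a nuclear target of erythroid factors, was at 99.9 and 105 CPM and 108 and 112 CPM (log2 0.10, 95% interval -0.02 to 0.23, adjusted p = 0.245, edgeR). ABCB10, a mitochondrial transporter needed for haem synthesis, was at 56.6 and 59.7 CPM and 63.9 and 64.7 CPM (log2 0.15, 95% interval -1.9e-04 to 0.29, adjusted p = 0.171, edgeR). Both were higher in each treated library without passing. TRIM58, a ubiquitin ligase of late erythroblasts, was at 34.6 and 33.8 CPM and 33.6 and 35.3 CPM and overlapped. TSPO2 had 2, 4, 8 and 3 counts (ratio 1.78, 95% exact interval 0.602 to 5.85), and AHSP and TRIM10 had none, and these depths could not show a change in any of the 3.

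The carbonic anhydrases, which hydrate carbon dioxide in the red cell, differed widely in level. CA2 (chr8:85463968-85481493, plus strand) was at 103 and 109 CPM untreated and 66.7 and 53.1 CPM treated, and in TPM at 125 and 123 TPM and 80.5 and 68.2 TPM. Every treated library was well below the untreated ones, and CA2 fell by 0.82 on the log2 scale (SE 0.0912, adjusted p = 7.6e-04, edgeR), with each library left out giving between -0.66 and -0.99. CA1, the abundant form of adult red cells, had 6, 7, 10 and 3 counts and was not tested (ratio 0.968, 95% exact interval 0.414 to 2.27). No direction can be read from so few counts of CA1.

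**Figure D5:**
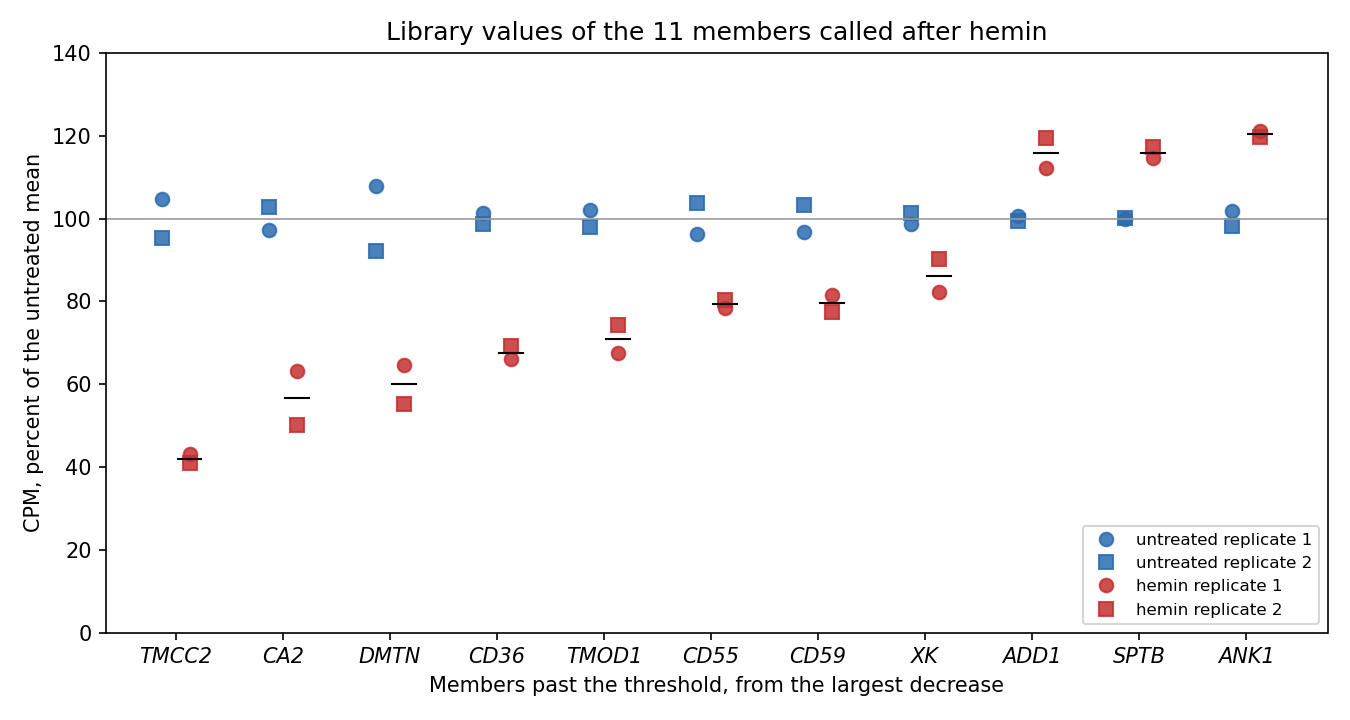
CPM of the 11 called members in each library as a percentage of the gene's untreated mean, with short black lines for the hemin mean. For every one of these genes both red (hemin) points lie on the same side of both blue (untreated) points, with TMCC2 lowest and ANK1 highest. The genes were picked by their calls in these same libraries, so this separation is no further support. Over all genes tested, 28.1% had both hemin libraries above in CPM and 29.3% had both below.

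Beyond the skeleton, 3 further lists of red cell genes were examined. Of 11 surface and blood group genes tested, 1 rose and 3 fell: ERMAP, the Scianna antigen (0.30 on the log2 scale, adjusted p = 0.0261), against SMIM1, the Vel antigen (-0.96, adjusted p = 0.0176), BCAM, the Lutheran antigen (-0.92, adjusted p = 0.0157), and SEMA7A (-0.77, adjusted p = 0.00572), all by edgeR. In membrane transport 1 of 15 passed, namely ABCG2, a porphyrin exporter, which fell from 8.60 and 8.81 CPM to 3.51 and 3.10 CPM (log2 -1.40, adjusted p = 0.00450, edgeR). In maturation and clearance 1 of 17 rose, the potassium channel KCNH2 (0.41, adjusted p = 5.3e-04, edgeR), and 3 fell: TSC22D3 (-0.92), UBE2H (-0.42) and CCND3 (-0.18), with adjusted p of 0.0372, 0.00410 and 0.0297 by edgeR. In all 4 lists 4 of 58 tested genes rose and 12 fell, 6.90% and 20.7%, with a median log2 fold change of -0.05. Over all genes tested 7.00% were called higher and 7.14% lower, so the share that rose was near that of all genes. These lists, too, were chosen with results known.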

How the data were processed

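Poly(A) RNA of 2 untreated and 2 hemin-treated K562 libraries was read as 50-base reads. Per the labels and methods, the authors trimmed reads (Trimmomatic 0.39) and ran RSEM 1.3.1 with STAR 2.7.5c on Ensembl 106 (GRCh38), each library separately. The deposited expected counts are unnormalized estimates with shared reads divided between genes. The deposited TPM are scaled by effective length. No strand setting was stated, so reads of a gene and its antisense partner cannot be told apart. The 8 further per-sample columns, which repeat TPM and FPKM, were not used.

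Counts were rounded, filtered with filterByExpr (14458 of 61498 genes), scaled by TMM and tested for condition with edgeR 4.0.16 in R 4.3.3, by the two-sided quasi-likelihood test with Benjamini-Hochberg adjustment, threshold 0.05. CPM are counts over the TMM-scaled library size. SE and 95% intervals came from this fit. Alternatives were RLE factors, library size only, no mitochondrial genome genes, no filter, a stricter filter (20 counts in both libraries of a condition), the replicate number as block, omission of single libraries, posterior mean counts, summed families, limma 3.58.1 on log2(TPM + 1) and log2(TPM + 0.1), and DESeq2 1.42.0. On counts simulated for this comparison, 172 of 197 genes changed 2-fold were recovered and 9 others called falsely, of 14193 genes. Every simulated gene had the same spread between libraries (common dispersion 0.00118), and no change below 2-fold was simulated. Recovery at the smaller changes of most called members, and with a spread differing by gene, was therefore not measured. Replicate libraries were not duplicates of one another (mean chi-square per tested gene 1.83 untreated, 2.22 hemin). Over the members the mean was lower, 1.43 untreated and 1.28 hemin. This measure cannot tell separate cultures from repeated preparations of the same culture. Counting intervals (exact, 95%, scipy 1.17.1) cover counting error only.

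Sequences were read from GENCODE 44 and RefSeq (GRCh38.p14). Members and lists were chosen with earlier results of these data known. All members are named, and of the other lists up to the 4 largest calls in each direction. Some results for listed genes that are no members are not reported here. Genes sharing sequence with a member were named for that sharing.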

Additional observations from a re-analysis of the deposited data

How the results depend on the processing

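With 2 libraries per condition, a left-out library leaves its partner alone, assumed to vary like the others. Depth limited SLC4A1, CA1, TSPO2 and EPB42, and no call of AHSP or TRIM10 was possible. Of 435 member results over 15 alternatives, 374 kept direction and side of the threshold, 36 lost and 11 gained a call, and 14 changed sign; the cause was not tested.

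limma on log2(TPM + 1) and on log2(TPM + 0.1) called 0 members and 0 other red cell genes in either direction, and 14 higher and 33 lower, or 15 and 34, of all genes. DESeq2 called 5 other red cell genes lower, and 589 higher and 479 lower of all genes, against 12, 1012 and 1033 in edgeR. Leaving out 1 library gave 1 to 3 members higher and 6 to 8 lower, 3 to 4 other red cell genes higher and 6 to 10 lower, 469 to 934 of all genes higher and 512 to 884 lower, and a median of the members from -0.093 to -0.0078. The members' median was -0.10 with gene families summed.

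Signs turned for members near 0. With library size only, RHD gave -0.0066 and TRIM58 -0.028. RHD gave -0.20 with families summed. GYPE gave -0.0066 in both limma fits, and TRIM58 -0.020 at a pseudocount of 1 and -0.022 at 0.1. With single libraries left out, RHD ranged from -0.119 to 0.210, ICAM4 from -0.222 to 0.039, CD47 from -0.080 to 0.0015, KEL from -0.0056 to 0.108 and TRIM58 from -0.028 to 0.053.

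Same-numbered libraries did not deviate together (correlation over genes 0.0036, or 0.021 at 200 or more counts), and the labels give the numbers no further meaning. With the replicate number as a block, 3 members were higher and 8 lower, and of all genes 855 were higher and 886 lower, and no member's call changed.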

Other observations

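The effective length of a gene, the mean over its transcript forms weighted by their estimated levels, moved for a few members and sets CPM and TPM apart. For RHCE it was 1369 and 1353 bases untreated and 1245 and 943 bases after hemin (log2 ratio -0.32), and for CD59 2614 and 2379 against 2159 and 2162 bases (log2 ratio -0.21). DMTN gave 1790.2 and 1930 against 1714 and 1622 bases (log2 ratio -0.16). SLC4A1, with the fewest counts of the members tested, gave 2962 and 1923 against 4845 and 2839 bases (log2 ratio 0.65). XK and TRIM58 kept 1 length throughout, 5126 and 5122 bases. These lengths are RSEM estimates without a test.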
